A study of Mus musculus with 6 samples.

Results

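The genes described here carry a symbol made of Zfp and a number, the name given to mouse zinc finger proteins, and were read above a log2 RMA value of 6 in wild-type lung. Of 18193 genes on the array 305 had such a symbol, and 190 of these had a wild-type mean of at least 6 and form the set. Members were chosen by their wild-type values, so these levels are a description, and RMA values carry no call of detection. Lung RNA from the left upper lobe was hybridised to Affymetrix Mouse430_2 arrays. The IL13-transgenic group (2 mice, genotype CC10-rtTA-IL13) uses the CC10 promoter of airway club cells to drive a doxycycline-dependent activator that switches on the type 2 cytokine IL13. The control group held 4 wild-type mice. All 6 mice were C57BL/6 animals of 6 to 10 weeks and drank doxycycline at 2 mg/mL for 7 days, so the drug is common to both groups. Each array is 1 animal by its label.

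Most Zfp genes encode proteins with tandem C2H2 fingers, short zinc-binding folds that each read a few bases of DNA. Many also carry a KRAB domain, which recruits the scaffold protein TRIM28, the histone methyltransferase SETDB1 and HP1 proteins, and so silences retroelements and other loci. The symbol is not a guarantee of this function: Zfp36, for example, encodes the CCCH protein tristetraprolin, which binds and destabilises cytokine mRNAs. KRAB zinc finger genes lie in clusters of recently duplicated copies, and a probe for one copy may also bind another.

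Expressed Zfp genes were shifted downward in the transgenic lungs by a small amount. Of the 190 genes 172 (90.5%) had a negative log2 difference, transgenic minus wild-type, and 18 a positive one. The median difference was -0.34, a signal 1.27-fold lower, with quartiles of -0.53 and -0.15 and a full range from -1.22 to 0.37. At an adjusted p under 0.05 (limma, Benjamini-Hochberg over all 18193 genes) 40 fell, 0 rose and 150 did not pass. At an unadjusted p under 0.05, 81 were lower and 2 higher. Of all genes 10.5% were called lower and 8.43% higher, with a median difference of -0.0047. The count of falls depended on single arrays. Leaving out transgenic replicate 1 gave 6 and leaving out replicate 2 gave 18. For wild-type replicates 1 to 4, left out in turn, it was 20, 52, 37 and 37. Between 159 and 174 members were negative in these 6 fits.

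The share of called falls, 21.1% in the main fit, was above that of other expressed genes, which depended on how level was matched. Without weighting it was 16.5%, and weighted to the members' spread of wild-type means 13.4%. Among the 10215 other genes with a wild-type mean of at least 6, 16.5% were called lower and 9.98% higher, 60.6% had a negative difference, and the median was -0.10. The Zfp counts differed from these more in direction than in the number of calls, and no test was made of the list as a whole. The order of the call shares was not kept in every fit. With transgenic replicate 1 left out, 3.16% of members and 5.05% of other expressed genes were called lower, and with wild-type replicate 1 left out 10.5% and 10.9%. The middle of the 2 distributions was offset. No member lay below -1.22 or above 0.37, where the far more numerous other expressed genes ran from -5.85 to 7.14. A called fall of at least 1 on the log2 scale was seen in 3 members (1.58%), namely Zfp711, Zfp462 and Zfp606, against 3.09% of the other expressed genes and 1.91% of all genes. These shares were not matched for level. At a wild-type mean of 6 to 7 they were 2.82% of members and 2.03% of other genes, and at 7 to 8 1.52% and 2.46%. With 3 such members the lower tails could not be compared.

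**Figure D1:**
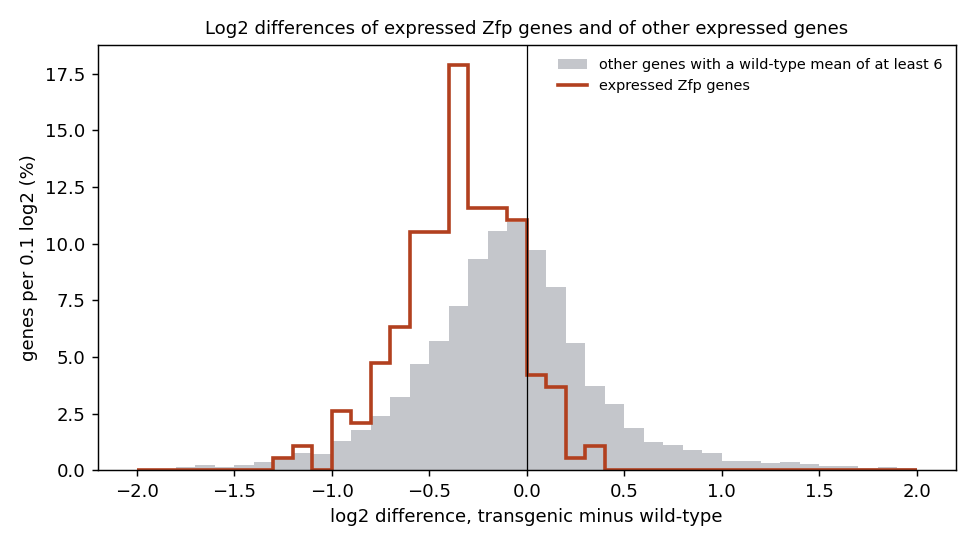
Distribution of the log2 difference (transgenic minus wild-type, x axis, bins of 0.1) in percent of genes (y axis) for the 190 expressed Zfp genes (red line) and the 10215 other genes with a wild-type mean of at least 6 (grey). The red line peaks left of 0, with a median of -0.34 against -0.10, and 113 other genes outside the range of -2 to 2 are not drawn.

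Members were dimmer than other expressed genes, with a median wild-type mean of 7.24 against 8.15, so genes were also set side by side within ranges of level. From 6 to 7 on the log2 scale 62 of 71 Zfp genes (87.3%) were negative, against 54.0% of the others, and 16.9% were called lower against 8.89%. From 7 to 8 the counts were 58 of 66 (87.9% against 59.2%), with 18.2% called lower against 14.6%. From 8 to 9 they were 38 of 39 (97.4% against 63.0%), with 35.9% called lower against 16.1%. At 9 or more all 14 Zfp genes were negative, against 64.5% of the others, but 2 of them (14.3%) were called lower against 23.5%. The surplus of negative differences was thus present at every level. A surplus of calls was not seen at 9 or more, a range of only 14 members. In that range both transgenic values lay below all wild-type values in 11 members (78.6%), against 40.4% of the others. Both lay above in 0 members, against 16.5% of the others. With other genes weighted to the members' spread over these ranges, 13.4% were lower, 10.5% higher and 58.4% negative. The median SE of a member was 0.153 and that of the other expressed genes 0.134, so a difference of the same size was called less readily in a member.

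**Figure D2:**
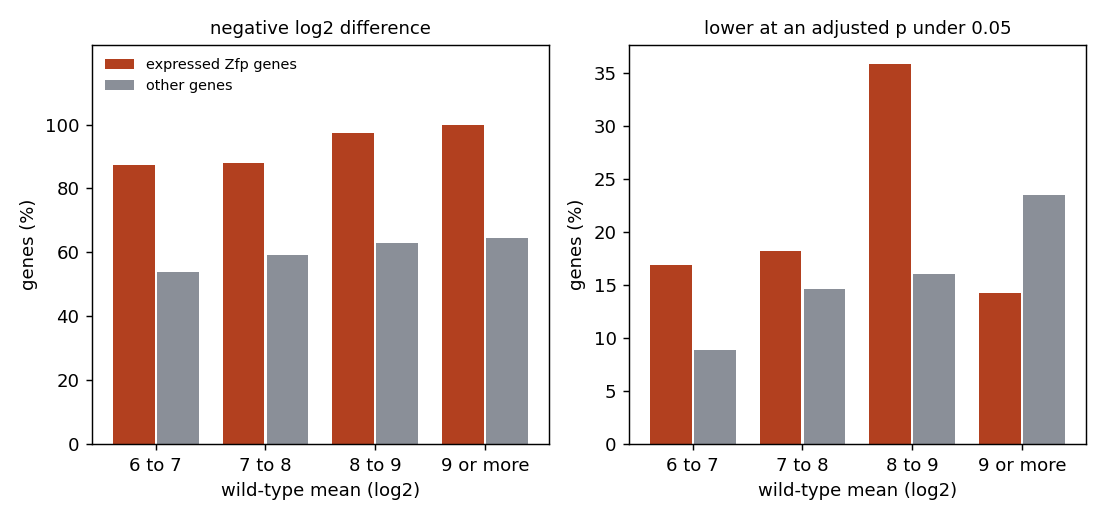
Percent of genes (y axis) with a negative log2 difference (left) and with a call as lower (right), by wild-type mean on the log2 scale (x axis), for expressed Zfp genes (red) and other genes (grey). The red bars on the left run from 87.3% upward, with every gene negative in the highest range, and on the right they exceed the grey bars except in the highest range.

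Choosing members by their wild-type mean favours genes whose wild-type arrays happened to read high. With a transgenic mean of at least 6 as the rule instead, 151 of 170 genes were negative, 32 were called lower and 1 higher, and the median was -0.31. Just inside the threshold, wild-type means were 6.03 for Zfp865, 6.04 for Zfp768 and 6.04 for Zfp784, with differences of 0.05, -0.21 and -0.30. Just outside it they were 5.99 for Zfp653, 5.97 for Zfp939 and 5.95 for Zfp397, with differences of -0.11, 0.03 and -0.41, of which the last was called lower (adjusted p = 0.032, limma). The 115 Zfp genes under the threshold had a median difference of -0.10, with 13 (11.3%) called lower, 1 (0.87%) higher and 60.9% negative. The other genes under it had a median of 0.07, with 2.16% lower, 6.7% higher and 36.4% negative. These 2 groups were not matched for level, with median wild-type means of 4.91 for the Zfp genes and 4.14 for the others. The part of level in their offset was not tested. The riser was Zfp991, singled out after its values were seen. Its transgenic values of 7.43 and 6.98 stood above wild-type values of 5.83, 5.74, 5.91 and 6.18, and it differed by 1.29 ± 0.17 (SE, n = 2 and 4, limma adjusted p = 0.0015). Its wild-type mean of 5.91 kept it out of the set.

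Array by array, both transgenic lungs lay below the wild-type lungs at the median of the set. Relative to the wild-type mean, the median deviation of the 190 genes was -0.36 in transgenic replicate 1 and -0.26 in transgenic replicate 2. Each wild-type array was set against the other 3, which gave 0.06 for replicate 1, -0.16 for replicate 2, -0.10 for replicate 3 and 0.17 for replicate 4. The wild-type lungs therefore differed among themselves too, and the gap between transgenic replicate 2 and wild-type replicate 2 was smaller than the gap between wild-type replicates 2 and 4. Other expressed genes moved less in the same arrays, with medians of -0.09 in both transgenic arrays and between -0.03 and 0.03 in the wild-type arrays. Among the wild-type arrays replicate 4 held the highest value for 98 of the 190 genes and replicate 2 the lowest for 90.

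**Figure D3:**
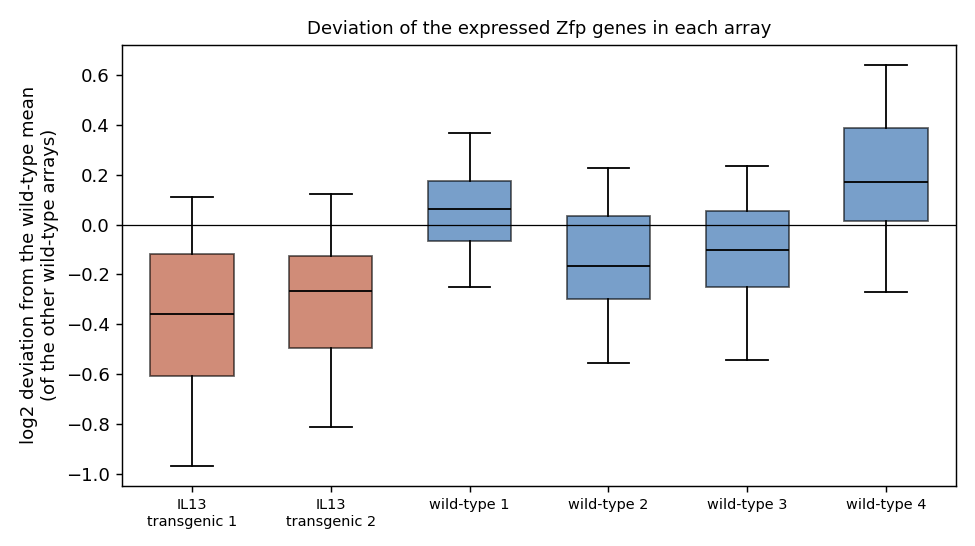
Log2 deviation of the 190 expressed Zfp genes from the wild-type mean (y axis) in each array (x axis). Wild-type arrays are set against the mean of the other 3. Boxes span the quartiles, the line is the median and whiskers reach the 5th and 95th percentiles. Transgenic medians are -0.36 and -0.26, and the wild-type medians run from -0.16 to 0.17.

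For 87 members (45.8%) both transgenic values lay below all 4 wild-type values, and for 6 (3.16%) both lay above. Over all genes the shares were 22.0% and 19.7%, and over the other expressed genes 32.1% and 19.4%. All 40 called members were among the 87.

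The largest falls came to slightly over 2-fold. Zfp711, whose human counterpart recruits the histone demethylase PHF8 to promoters, read 5.72 and 5.64 with the transgene, against 6.94, 6.39, 6.89 and 7.39 in wild-type replicates 1 to 4. The groups were clear of each other, and the fall was 2.33-fold (log2 difference -1.22 ± 0.23, SE, n = 2 and 4, limma adjusted p = 0.0086). A further probe set of Zfp711, with a very low wild-type mean of 2.805, differed by 0.125. With the mean of all its probe sets the difference of Zfp711 was -0.55. Zfp462, a large factor tied to heterochromatin in mouse embryonic stem cells, read 6.25 and 6.40 against 7.60, 7.17, 7.38 and 7.70. It fell 2.2-fold (-1.14 ± 0.16, adjusted p = 0.0022, limma) and kept its call under every alternative tried. A second probe set of Zfp462 read 6.09 and 6.55 against 6.71, 6.58, 6.99 and 6.99, a difference of -0.50, and a further dim one, with a wild-type mean of 4.002, differed by 0.002. Zfp606, whose human counterpart is a KRAB repressor, read 5.29 and 5.32 against 6.75, 6.25, 5.97 and 6.78. Its fall was 2.19-fold (-1.13 ± 0.23, adjusted p = 0.011, limma), although 2 further probe sets, with wild-type means of 4.26 and 4.99, gave -0.28 and 0.17.

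Falls of nearly 1 on the log2 scale followed. Zfp229 read 6.09 and 6.24 against wild-type values of 7.33, 6.53, 7.20 and 7.57, of which replicate 2 came close to the transgenic values (difference -0.99 ± 0.25, adjusted p = 0.029, limma). Zfp697, described in mouse muscle as a regulator of regeneration, read 6.84 and 6.49 against 7.58, 7.39, 7.80 and 7.75 (-0.97 ± 0.16, adjusted p = 0.0042). Zfp763 read 7.33 and 7.55 against 8.46, 8.09, 8.21 and 8.76 (-0.94 ± 0.19, adjusted p = 0.011). In these 3 genes, too, no transgenic value reached the lowest wild-type value. Zfp37 differed by -0.92, Zfp788 by -0.91, Zfp654 by -0.89, Zfp647 by -0.88, Zfp39 by -0.87 and Zfp101 by -0.81, with adjusted p from 0.0051 to 0.043. The last of the 14 largest were Zfp74 (-0.79, adjusted p = 0.036) and Zfp672 (-0.79 ± 0.13, adjusted p = 0.0039). For Zfp74 the transgenic arrays themselves differed, at 4.996 and 5.88, while the wild-type arrays lay between 6.17 and 6.34. Zfp672 read 6.93 and 6.81 against 7.72, 7.71, 7.44 and 7.75, with wild-type replicate 3 apart from the other wild-type arrays, and it kept its call under every alternative tried. Of these 14 calls 11 were lost when transgenic replicate 1 was left out and 7 when replicate 2 was. Wild-type replicates 1 and 3, left out in turn, cost 5 calls each, replicate 2 cost 1 (Zfp74) and replicate 4 cost 0.

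**Figure D4:**
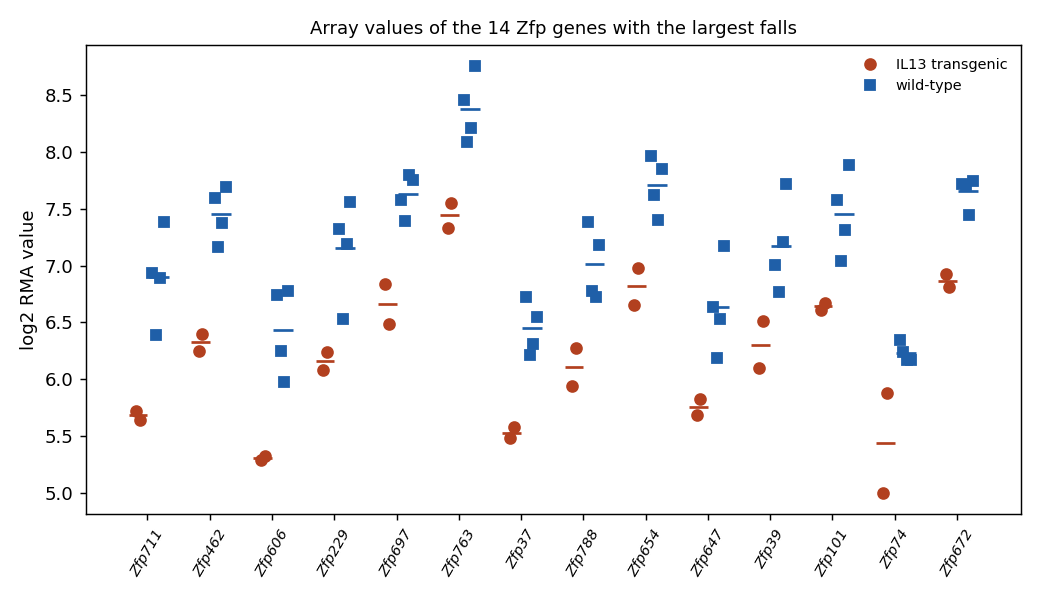
Log2 RMA values (y axis) of the 14 Zfp genes with the largest called falls (x axis, largest at the left) in 2 transgenic (circles) and 4 wild-type arrays (squares), with group means as bars. In each gene both circles lie below every square, and the closest approach is seen where a wild-type array reads low, as for Zfp229 and Zfp39.

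Sequences upstream of the start are shown for Zfp606, Zfp229 and Zfp697, the largest falls matched in RefSeq's promoter table, so that the promoters of strongly lowered members can be compared. Each is the 250 bases before the annotated start on GRCm38.p6, all on the plus strand, at chr7:12478055-12478304 for Zfp606, chr17:21733474-21733723 for Zfp229 and chr3:98382231-98382480 for Zfp697. Capitals mark, on either strand, the CCAAT box, the GC box letters GGGCGG, and the short element ACTACAA.
Zfp606: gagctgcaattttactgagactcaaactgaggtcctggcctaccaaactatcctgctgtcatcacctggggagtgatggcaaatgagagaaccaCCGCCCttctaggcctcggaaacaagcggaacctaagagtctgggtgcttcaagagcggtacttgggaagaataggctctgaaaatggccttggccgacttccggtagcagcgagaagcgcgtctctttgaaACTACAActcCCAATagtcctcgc
Zfp229: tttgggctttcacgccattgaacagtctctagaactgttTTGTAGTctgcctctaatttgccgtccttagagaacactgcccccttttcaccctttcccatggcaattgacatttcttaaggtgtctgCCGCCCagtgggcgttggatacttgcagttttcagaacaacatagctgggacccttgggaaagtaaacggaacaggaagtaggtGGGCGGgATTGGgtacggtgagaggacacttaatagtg
Zfp697: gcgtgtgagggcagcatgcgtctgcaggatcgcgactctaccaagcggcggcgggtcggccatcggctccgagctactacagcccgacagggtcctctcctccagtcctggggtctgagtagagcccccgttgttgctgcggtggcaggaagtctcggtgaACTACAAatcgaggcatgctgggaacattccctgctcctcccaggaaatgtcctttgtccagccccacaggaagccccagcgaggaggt

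ACTACAA stood in all 3 of these windows, on the reverse strand in Zfp229. It was rare in general, found in 12 of 154 members with a window (7.79%), 4 of them among the 30 called genes with a window, and in 4.06% of other expressed genes and 3.32% of all 14452 measured genes with a window. CCAAT was in 76 members (49.4%) against 35.3% of other expressed genes and 35.8% of all genes. GGGCGG was in 53.2% of members, 60.9% of other expressed genes and 49.9% of all genes. The median difference was -0.36 for members with CCAAT and -0.30 for those without, and -0.37 with GGGCGG and -0.29 without, so the falls differed little with either motif. With ACTACAA it was -0.42 and without it -0.34. Among members not called the order was reversed, at -0.15 with ACTACAA and -0.29 without. The 3 windows shown were picked for their large falls, and 13 motifs were searched. ACTACAA in all 3 is therefore a description, and a link to the falls was not tested. TATAAA was in 7.14% of members and 6.44% of other expressed genes, CCGGAAG in 15.6% and 14.1%, CACGTG in 8.44% and 8.61%, TGACGTCA in 3.25% and 2.61%, and TGACGCA in 4.55% and 3.01%. ATGGCGGC and GATGGCGG, which overlap, were each in 1.95% of members, against 1.94% and 1.59% of other expressed genes. Of the 13 motifs searched, 3 longer ones are given by name only. A longer form of ACTACAA was in 3.25% of members and 0.617% of other expressed genes, the NRF1 palindrome in 2.6% and 1.65%, and the BANP palindrome in 0 of 154 members and 0.859%. All motifs were searched on both strands. Members' windows were less rich in G and C than those of other expressed genes (median 55.6% against 60.4%, with 12 CG dinucleotides against 16).

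Of 62 Zfp genes listed for a described function, 49 were members. Among these 11 fell, 0 rose and 38 did not pass, and 46 had a negative difference, with a median of -0.32. The share of falls was near the 21.1% of the whole set, where other expressed genes had 16.5%. Zfp281, a regulator of pluripotency in mouse embryonic stem cells, read 8.02 and 7.88 against wild-type values of 8.51, 8.60, 8.70 and 8.73. The gap between the groups exceeded the spread within either (difference -0.68 ± 0.11, adjusted p = 0.0050, limma). A second probe set of Zfp281 differed by -0.49. Zfp704 fell by 0.67 (SE 0.14, adjusted p = 0.014) and Zfp131, which also carries a BTB domain, by 0.58 (SE 0.11, adjusted p = 0.010). Zfp644, a partner of the histone methyltransferases G9a and GLP, fell by 0.51 (SE 0.14, adjusted p = 0.040, limma), and that call ended under 12 of 20 alternatives. Zfp932, a repressor of endogenous retroviruses in mouse embryonic stem cells, read 6.73 and 6.88 against 7.31, 7.11, 7.44 and 7.5, and fell by 0.53 (SE 0.14, adjusted p = 0.029). Zfp664 (-0.54), Zfp292 (-0.48) and Zfp35 (-0.38) also passed, with adjusted p of 0.022, 0.018 and 0.041. The call of Zfp35 ended under 11 of 20 alternatives, those of Zfp664 and Zfp932 under 6 each and that of Zfp292 under 5. For Zfp292, 3 further probe sets with wild-type means of 7.43 to 8.65 differed by -0.53, -0.63 and -0.43.

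Several well-described members did not pass. Zfp568, which represses a placental transcript of Igf2, differed by -0.36 ± 0.14 (adjusted p = 0.10, limma). Zfp809, which silences retroviruses in mouse embryonic cells, differed by -0.31 ± 0.16 (adjusted p = 0.24), and Zfp445, which maintains genomic imprints, by -0.26 ± 0.11 (adjusted p = 0.13). In each of these 3 both transgenic values were below all wild-type values, yet the differences were too small beside their SE to pass. For Zfp809 the groups barely cleared each other, with 9.730 in transgenic replicate 1 and 9.735 in wild-type replicate 3. Zfp503, a developmental regulator, had the most negative difference among the described genes that did not pass (-0.70 ± 0.21, adjusted p = 0.055), and Zfp219 the most positive (0.18 ± 0.13, adjusted p = 0.39). Zfp36, the tristetraprolin gene, read 9.85 and 9.15 against wild-type values of 9.60, 9.34, 11.30 and 8.70. Its groups overlapped entirely, and wild-type replicate 3 alone was high (difference -0.24 ± 0.60, adjusted p = 0.83). Zfp598, a ubiquitin ligase that senses collided ribosomes, differed by -0.08 ± 0.11 (adjusted p = 0.64).

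The 3 probe sets with the highest wild-type signal belonged to Zfp622, Zfp871 and Zfp91; brightness depends on the probes and is no ranking of RNA. Zfp622, whose human counterpart acts in maturation of the large ribosomal subunit, read 11.11 and 11.21 against 11.55, 11.40, 11.41 and 11.52. Zfp871 read 9.76 and 9.69 against 10.14, 9.98, 10.15 and 10.41, and Zfp91, a ubiquitin ligase of NF-kappaB signalling, 9.78 and 9.73 against 10.19, 9.97, 10.02 and 10.23. The differences were -0.31 ± 0.11, -0.45 ± 0.14 and -0.35 ± 0.12, with adjusted p of 0.080, 0.052 and 0.080 (limma), so none passed although no array of one group reached the other. A second probe set of Zfp91, with a wild-type mean of 8.18, went the other way with 0.39. At the upper end of the whole set stood Zfp691 (0.37 ± 0.11, adjusted p = 0.058) and Zfp710 (0.34 ± 0.13, adjusted p = 0.12), named after their values were seen. Both transgenic values were above all wild-type values in each, and neither gene passed.

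Other probe sets of the same genes gave a partial check on the choice of 1 probe set per gene, from the same arrays. Of the 190 genes 43 had 60 further probe sets with a wild-type mean of at least 6, of which 55 (91.7%) were lower in transgenic lungs, with a median of -0.36. For the 7 called genes that had such probe sets, all 10 were lower, with a median of -0.42. Zfp148, a factor that binds GC-rich promoters, shows how a single probe set may differ from the rest. The one chosen gave -0.05, while its 5 others at this level gave between -0.30 and -0.52. Of the dim probe sets 94 of 145 (64.8%) were lower, with a median of -0.12. Further probe sets of other expressed genes were not counted, so neither the bright nor the dim share has a like share beside it. For called genes 16 of 30 dim probe sets were lower, with a median of -0.05. Of the chosen probe sets 160 had no letter suffix, with 36 called lower and a median of -0.35. The 12 with the suffix a_at had 0 called lower and a median of -0.27. Those marked for several transcripts or for sequences shared with other genes (s_at and x_at, 9 each) gave 3 and 1 calls.

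In the authors' deposited table, a q-value under 0.05 was given to 2 members, both lower, at 0.0479 for Zfp672 and 0.0497 for Zfp275. Over all genes that table called 1.16% lower and 1.51% higher, and over the other expressed genes 1.93% and 1.89%. The 2 of 190 members were a smaller share than the 1.16% or the 1.93%, the reverse of the order in the main fit. The median q-value in the authors' deposited table was 0.121 for the 40 genes called here and 0.292 for the other members. Those 40 were picked by p-values from the same arrays, so a lower q-value in them is no independent check.

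By position, falls were spread over the genome rather than held to 1 cluster. In RefSeq's order on GRCm38.p6, 76 members lay in 11 groups of at least 4 whose neighbours start within 1 Mb. Of these 14 (18.4%) were called lower and the median was -0.32, against 26 of the 114 outside such groups (22.8%) and a median of -0.35. The largest group, 18 genes on chromosome 17 from Zfp160 to Zfp213, was negative throughout, with 6 called lower (Zfp160, Zfp948, Zfp229, Zfp943, Zfp758 and Zfp213) and a median of -0.49. A second group on chromosome 17, from Zfp871 to Zfp414, had 2 of 9 called lower and a median of -0.29. On chromosome 7 the 6 genes from Zfp628 to Zfp580 differed from this pattern, with 2 negative, 0 called and a median of 0.04. On chromosome 13 the 7 genes from Zfp712 to Zfp748 had 0 called and a median of -0.14. Neighbours may share probes' targets as recent duplicates, so the genes of a group are not independent observations.

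**Figure D5:**
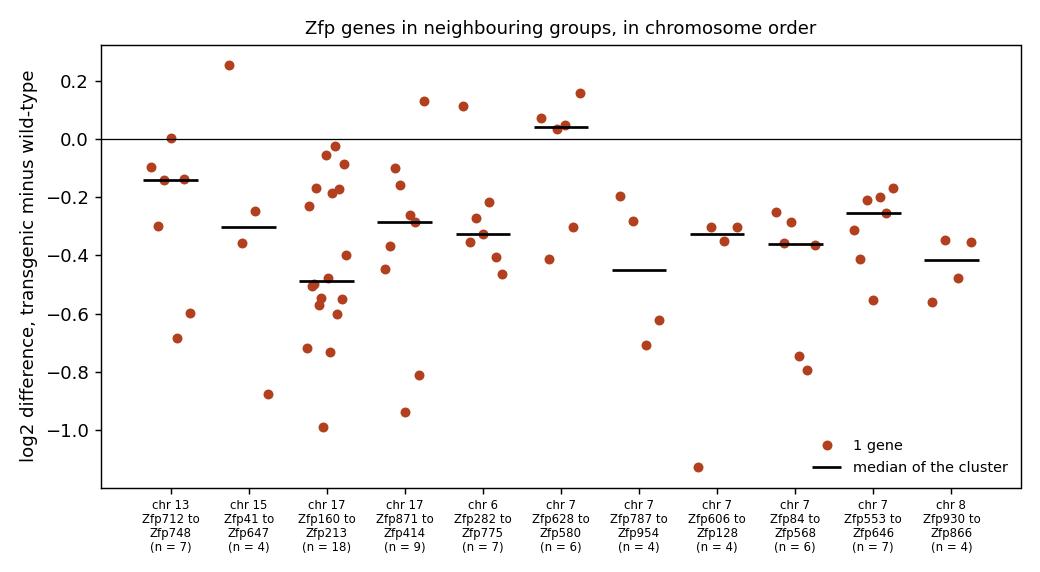
Log2 difference (transgenic minus wild-type, y axis) of each Zfp gene in the 11 neighbouring groups (x axis, with chromosome, first and last gene and number of genes), points in chromosome order and bars at the median. The group of 18 on chromosome 17 lies wholly below 0, and the group of 6 on chromosome 7 around it.

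The silencing machinery that KRAB zinc finger proteins recruit did not move as one. Of 29 measured corepressor and heterochromatin genes 5 fell, 1 rose and 23 did not pass, with a median difference of -0.04. For the 25 with a wild-type mean of at least 6, 5 fell, and 16.5% of other expressed genes did, and the median was -0.14. Trim28, the scaffold that binds KRAB, read 9.70 and 9.54 in transgenic and 9.62, 9.69, 9.63 and 9.61 in wild-type arrays. Its groups overlapped (difference -0.02 ± 0.10, adjusted p = 0.92, limma), as did those of Setdb1 (0.01 ± 0.13, adjusted p = 0.98). Among those that fell were Mphosph8 (-0.51 ± 0.11, adjusted p = 0.015) and Tasor (-0.43 ± 0.12, adjusted p = 0.034), both subunits of the HUSH silencing complex. The others were Atf7ip, a partner of SETDB1 (-0.48), Cbx5, which encodes an HP1 protein (-0.42), and Trim24, a relative of Trim28 (-0.39), with adjusted p of 0.040, 0.043 and 0.048. Uhrf1, which guides DNA methylation at replication, rose from a low wild-type mean of 4.61 (0.65 ± 0.18, adjusted p = 0.039). Except for Mphosph8, which lost it under 3, each of these calls ended under 7 to 13 of the alternatives tried. The chosen Cbx3 probe set read near the floor (wild-type mean 4.19), so that gene was barely measured.

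Relatives with other names were counted over genes with a wild-type mean of at least 6, where 16.5% of genes outside the set were called lower and 9.98% higher. Zfp genes whose number carries an ending, such as Zfp354c, had 7 of 21 lower and 1 higher, with 20 negative and a median of -0.39. The riser was Zfp385b (7.75 and 8.05 against 6.58, 6.32, 6.61 and 6.59, a difference of 1.37 ± 0.14, adjusted p = 0.00036, limma). BTB zinc finger genes (Zbtb) had 8 of 30 lower and 0 higher, with a median of -0.39, and SCAN zinc finger genes 3 of 10 lower and 0 higher, with a median of -0.35. Krüppel-like and Sp genes had 6 of 16 lower and 0 higher (median -0.69), led by Klf15 (-1.67 ± 0.35, adjusted p = 0.013). Other zinc-binding families varied. PR domain genes (Prdm) had 4 of 7 lower and 0 higher (median -0.52), MYM genes (Zmym) 2 of 5 and 0 (median -0.39), CCHC genes (Zcchc) 3 of 9 and 1 (median -0.29), and Ikaros genes (Ikzf) 1 of 3 and 1. RING finger genes (Rnf) had 6 of 61 lower and 5 higher (median -0.14), led by the rise of Rnf128 (3.64 ± 0.20, adjusted p = 1.3e-05), and palmitoyltransferases (Zdhhc) 1 of 17 lower and 1 higher (median -0.01). CCCH genes (Zc3h) had 2 of 15 lower and 0 higher (median -0.21) and PHD finger genes (Phf) 2 of 17 lower and 0 higher (median -0.24). These counts were not tested against each other.

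Marker RNA of several cell types differed between the genotypes. Of 12 macrophage markers 10 rose, and their mean log2 level was 11.67 and 11.73 in the transgenic arrays against 9.25 to 9.43 in the wild-type arrays. Club cell (5 of 6), smooth muscle (5 of 6), alveolar type I (5 of 7), endothelial (4 of 10) and fibroblast markers (4 of 8) fell. Of other genes with a wild-type mean of at least 6, 16.5% were called lower and 9.98% higher. Endothelial markers averaged 8.66 and 8.88 in transgenic and 9.23 to 9.79 in wild-type arrays, and fibroblast markers 9.51 and 9.31 against 9.79 to 10.42. Club cell markers averaged 12.40 and 12.90 against 13.87 to 14.25, smooth muscle markers 7.56 and 7.73 against 8.27 to 8.93, and alveolar type I markers 11.54 and 11.68 against 12.15 to 12.30. Alveolar type II markers, with 0 of 6 called, averaged 12.92 and 12.93 against 12.80 to 12.95. Ciliated cell markers had 1 of 7 called lower (6.56 and 7.04 against 6.77 to 7.92). Heart muscle markers (4 of 6 called lower) averaged 7.57 and 5.15 against 8.32 to 10.59. Adipocyte markers (2 of 5 called lower) averaged 8.64 and 5.98 against 8.54 to 10.72, though Fabp4 went the other way (0.95, not called). Wild-type replicate 4 was the highest in both of these lists. That replicate also held the highest Zfp value most often. From highest to lowest, the wild-type replicates ran 4, 1, 3 and 2 in both lists. Their Zfp medians ran in the same order (0.17, 0.06, -0.10 and -0.16). The transgenic pair ran the other way: replicate 2 was the lower in both marker lists, and replicate 1 had the lower Zfp median (-0.36 against -0.26). T cell markers averaged 6.83 in both transgenic arrays and 6.41 to 6.73 in the wild-type arrays, with 1 of 6 called higher. B cell markers (6.66 and 6.90 against 6.18 to 6.60) and neutrophil markers (6.61 and 6.45 against 5.99 to 6.64) also had 1 of 6 called higher each. Eosinophil markers averaged 3.82 to 4.07 over the arrays and were near the floor except for Siglecf. Siglecf was the 1 of 6 called lower (6.43 and 5.82 against 6.63 to 7.18). In whole lung RNA fewer cells of a type and less RNA per cell cannot be told apart, and the part of these shifts in the Zfp differences was not tested.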

How the data were processed

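The values are log2 values after RMA for 45037 probe sets, deposited by the authors for the 6 arrays. The submitters' processing notes name RMA without a version. The authors' deposited table gives, per the file headers, a log2 fold change and a q-value for each probe set, and the sources used here do not give its test. Its 6 columns of single arrays match no label and were not used. Symbols were updated through the Entrez ID in RefSeq (34741 of 34945 probe sets with 1 symbol). Probe sets with several symbols (932) or none (9160) were left out, and of several probe sets for a gene the one brightest on average was kept. All 18193 genes were fitted by lmFit and eBayes (limma 3.58.1, R 4.3.3, 4 residual degrees of freedom) without further normalization, and p-values were Benjamini-Hochberg adjusted over all genes. The threshold was 0.05. The fit was also run on simulated data with independent noise for each gene. Such data hold no shift shared by many genes of an array, so that run does not bear on the Zfp counts. A fit with a single transgenic array takes its spread from the wild-type group. Other settings are given under the limits. The number of arrays limits the precision.

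Members and lists were chosen with earlier results of these data known. Named genes are the 14 largest called falls clear of all wild-type arrays (up to 10 such rises were allowed, and there were 0), described Zfp genes and corepressor genes that passed, the 3 brightest, and 3 on each side of the threshold. Others are examples of a counted group or were named after their values were seen. Promoter windows matched 154 of 190 members, using the most upstream window of a gene. Protein sequences were not used here. Figures were drawn with matplotlib 3.10.9.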

Additional observations from a re-analysis of the deposited data

Results flagged for a closer look

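Of 52 genes examined for a single outlying wild-type array, 1 had one. For Zfp672 wild-type replicate 3 read 7.444, below the other wild-type arrays at 7.72, 7.71 and 7.75, a gap that was a large share of the range of these 4 values. Both transgenic values (6.93 and 6.81) lay below it. Chance marks about 1 in 20 such groups.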

How the results depend on the processing

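The median difference stayed negative under all 25 alternatives. The 40 falls became 8 without moderation of the variances, or 4.21% of members against 6.3% of other expressed genes, the reverse of the order in the main result (21.1% against 16.5%). Leaving out 1 array gave 6 to 52 falls and 0 to 2 rises, and the order also reversed without transgenic replicate 1 (3.16% against 5.05%) and without wild-type replicate 1 (10.5% against 10.9%). The count of rises went from 0 to 1 with genes at 6 or more in at least 2 arrays, genes at or above the median mean expression, repeated quantile normalization, centring on the array median (over all or expressed genes), array weights, the mean of a gene's probe sets, a wild-type mean of at least 5, a mean over all 6 arrays or a transgenic mean of at least 6, and symbols with letter endings too. Centring over expressed genes moved the median of all genes to 0.068 and left 31 falls with a median of -0.27. Under the mean of all probe sets Zfp91 reversed to 0.0229 and Zfp865 (main value 0.0461) to -0.1136. Leaving out 1 array put Zfp865 between -0.0681 and 0.1604, with -0.0681 for transgenic replicate 1 and -0.0269 for wild-type replicate 2, and it was -0.0467 without wild-type replicates 2 and 4 together. The cause of these changes was not tested.

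With the replicate number as a block, which leaves 1 residual degree of freedom and only replicates 1 and 2 in both groups, 46 genes fell and 1 rose, 31 of the falls shared with the 40. Deviations of same-numbered arrays correlated at -0.0758 and 0.274, so the numbers were not taken as a pairing.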
